A study of Mus musculus with 13 samples.

Results

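The cytosolic ribosome is built from a small (40S) and a large (60S) subunit, and its protein parts are encoded by the Rps and Rpl genes. Members were taken by symbol: protein-coding genes named Rps or Rpl plus a number (with a closing letter such as a, x or l where the name has one), together with Rplp0, Rplp1, Rplp2 and Rpsa, with at least 10 counts summed over the libraries. The rule found 82 of the 22048 genes in the deposited table, 32 of the 40S and 50 of the 60S subunit. Of these, 80 passed the filter on low counts. Rpl3l and Rpl39l, paralogues known from muscle and testis, did not pass, with 34 and 37 counts over all libraries. Rpl10l, another testis paralogue, had 0 counts in every library. Rps4l and Rpl6l match the symbol pattern but are annotated as pseudogenes. Fau, Rack1 and Rpl36al, which encode ribosomal proteins under other names, lie outside the rule.

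Ribosomal proteins are needed in equal numbers, one of nearly every kind per ribosome, and their genes are usually expressed together. Their mRNAs start with a run of pyrimidines, the 5′ terminal oligopyrimidine (TOP) tract. Through this tract the kinase mTOR and the RNA-binding protein Larp1 set how actively the mRNAs are translated and how stable they are. In liver, growth after loss of tissue is known to be accompanied by the making of new ribosomes.

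The mRNA counts came from 13 libraries of whole mouse liver. Each library is called a liver here, though the labels do not say that the replicates of a group are separate animals. Controls were 6 livers not depleted of hepatic stellate cells, the vitamin A-storing pericytes of the sinusoids, with replicates 1, 2 and 6 male and 3, 4 and 5 female. The depleted group held 4 livers depleted of these cells, of which replicate 3 was male. The hepatectomy group held 3 livers of mice not depleted, taken 72 h after surgical removal of part of the liver, of which replicates 1 and 2 were male. Strain, age, the agent or allele used for depletion, the share of liver removed and any sham operation of the controls are not given in the sources used here. Totals ran from 35360991 to 51008737 counts per library. As a check of the labels, 12 of 12 stellate cell markers were lower in depleted livers, with summed levels of 305 to 801 CPM (counts scaled to library size with TMM factors, which correct for composition) in controls and 15.5 to 74.7 CPM in depleted livers. The highest depleted value was in replicate 4. Hepatocyte markers summed to at least 84530 CPM in every library.

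Start-site sequences are given first because the TOP tract lies there. RefSeq windows (GRCm38.p6, 250 bases before to 50 after each annotated start) were found for 62 of the 82 members, as 74 windows. A run was counted where a C within 5 bases of the annotated start, on the gene's strand, was followed by at least 4 C or T. By this reading, 31 of 74 member windows held a run (41.9%), against 18.7% of the 19993 windows of all genes in the table. Windows of 30 bases (20 before the start and 10 from it) are shown for the members that passed a test between groups below and for Rpl41, which had the highest fold change after hepatectomy. No window was found for Rps20. Capitals mark the run.

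Rps2 (chr17:24720043-24720072, plus strand): tgcgtaggcagtcgagatctcgcgCTTCTT
Rps10 (chr17:27635235-27635264, minus strand): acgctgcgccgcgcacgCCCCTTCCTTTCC
Rpl15 (chr14:18270977-18271006, minus strand): ggattgtgggagaaagCCTTCTTCCTTTCC
Rps27l (chr9:66946066-66946095, plus strand): cctctccactcctccccgccgCCTCTatcc
Rps3 (chr7:99483700-99483729, minus strand): gaacacttgcaagggtcgccgcgctgcgcg
Rpl7l1 (chr17:46782647-46782676, minus strand): gcccggtgaggctgcgcaagcgcagtagct
Rpl41 (chr10:128549159-128549188, minus strand): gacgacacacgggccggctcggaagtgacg

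Rps2, Rps10, Rpl15 and Rps27l held a run at the annotated start, whereas Rps3, Rpl7l1 and Rpl41 held none in this window. An annotated start can lie a few bases from the one used in liver, so a window without a run says nothing on whether the mRNA is a TOP mRNA. Runs were found in 12 of 29 windows of 40S and 19 of 45 windows of 60S genes. Other letters were searched on both strands of the 300 bases. CCGGAAG, a form of the site of Ets factors, was in 27 member windows (36.5%, against 11.9% of all table windows). AAGATGG, the core of the site of Yy1, was in 12 (16.2% against 6.31%). GGGCGG, bound by Sp1, was in 44 (59.5% against 47.9%), and TATAAA, the TATA box, in 7 (9.46% against 12%).

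Levels in control livers differed widely between members once counts were set per length. On the scale of CPM per kilobase of joined exons, as given in the table, the 80 tested members had a median of 79.9 and ranged from 11.4 to 492. Rplp1, an acidic protein of the ribosomal stalk, was highest at 492 ± 93.1 (SD, n = 6). It was followed by Rpl4 (366 ± 38.0), Rpl8 (288 ± 46.5) and Rpl32 (265 ± 51.9), all proteins of the subunit cores. The lowest were Rps15a (11.4 ± 1.99), Rps28 (12.8 ± 2.10), Rpl22l1 (14.0 ± 4.10), Rpl39 (14.1 ± 2.67) and Rps19 (14.2 ± 2.35). The intervals of these 5 lowest genes overlap their neighbours, so their order is not resolved. Joined exons add up rare long exons, and the order depended on the length used. Per kilobase of the principal GENCODE transcript, a length chosen after seeing the data, Rps19 stood at 86.0 ± 14.2 and Rps28 at 47.8 ± 7.84, while Rplp1, Rpl4 and Rps15a kept their places at 488 ± 92.3, 338 ± 35.1 and 13.8 ± 2.41. Reads may also be shared with copies: 60 of the 82 members have at least 1 annotated pseudogene named after them, with up to 24 for one gene, and the handling of reads that map to several places is not given in the sources used here.

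The share of all counts that fell on the 82 members was close to 1% in every library. In controls it was 0.785% at the lowest, 0.939% at the median and 1.126% at the highest. The 4 depleted livers, replicates 1 to 4, had 0.832%, 0.814%, 1.103% and 1.327%. After hepatectomy, replicates 1 to 3 had 1.041%, 1.077% and 0.916%. The 3 groups overlapped in this share, with means of 0.940% ± 0.130 (SD, n = 6), 1.019% ± 0.244 (SD, n = 4) and 1.011% ± 0.085 (SD, n = 3). Counting error was far smaller than this spread, since the Wilson 95% interval of the depleted replicate 4 ran from 1.323% to 1.330%.

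Scaled for composition, the hepatectomised livers stood higher. The mean log2 CPM over the 80 tested members came to 6.90 ± 0.12 after hepatectomy (SD, n = 3). Controls had 6.55 ± 0.24 (SD, n = 6) and depleted livers 6.55 ± 0.27 (SD, n = 4). Single controls ran from 6.26 to 6.95, with the males (6.49 to 6.95) at the upper end and the females at 6.26 to 6.50. The depleted livers were at 6.28, 6.37, 6.67 and 6.87, and the hepatectomised livers at 6.96, 6.97 and 6.76. Control replicate 6 lay within the hepatectomy range, and depleted replicates 3 and 4 lay above depleted replicates 1 and 2. The members moved as a block between livers of the same group. In control replicate 6, 80 of 80 members were above the control mean, and in control replicate 5, 0 of 80. Depleted replicate 1 had 3 of 80 above the control mean and depleted replicate 4 had 73 of 80. Among the 6 controls, the median standard deviation of a member was 0.26 on the log2 scale, against 0.31 for all tested genes.

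**Figure D1:**
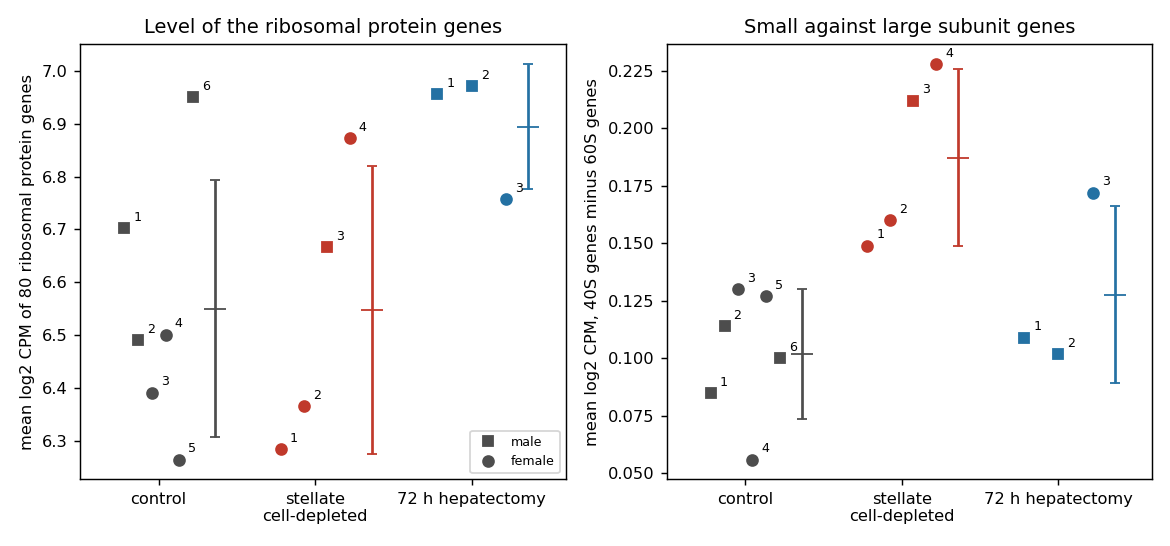
Each point is a liver (squares male, circles female, numbers are replicates) and the bars are group means ± SD. The left panel gives the mean log2 CPM of the 80 tested genes, where control replicate 6 reaches the hepatectomy range, and the right panel gives the mean of 40S genes minus that of 60S genes, where the 4 depleted livers lie above the 6 controls.

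Gene length moved with these levels. Ribosomal protein mRNAs are short, with a median principal transcript of 843 bases against 2931 for all tested genes. By joined exons, the length used for the slope and for removing the trend, the medians were 1608.5 and 3836 bases. A slope on log2 length was fitted to each library's deviation from the mean of all 13 libraries, over genes that are not members. It was 0.04 to 0.14 in control replicates 1 to 5 and -0.08 in control replicate 6. It was 0.06, 0.04, -0.06 and -0.19 in the depleted and -0.07, -0.05 and -0.01 in the hepatectomised livers. The 4 libraries with the most negative slopes (control 6, depleted 3 and 4, hepatectomy 1) each had a member level above the mean of its group. Results with this trend removed are given beside those it moved.

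**Figure D2:**
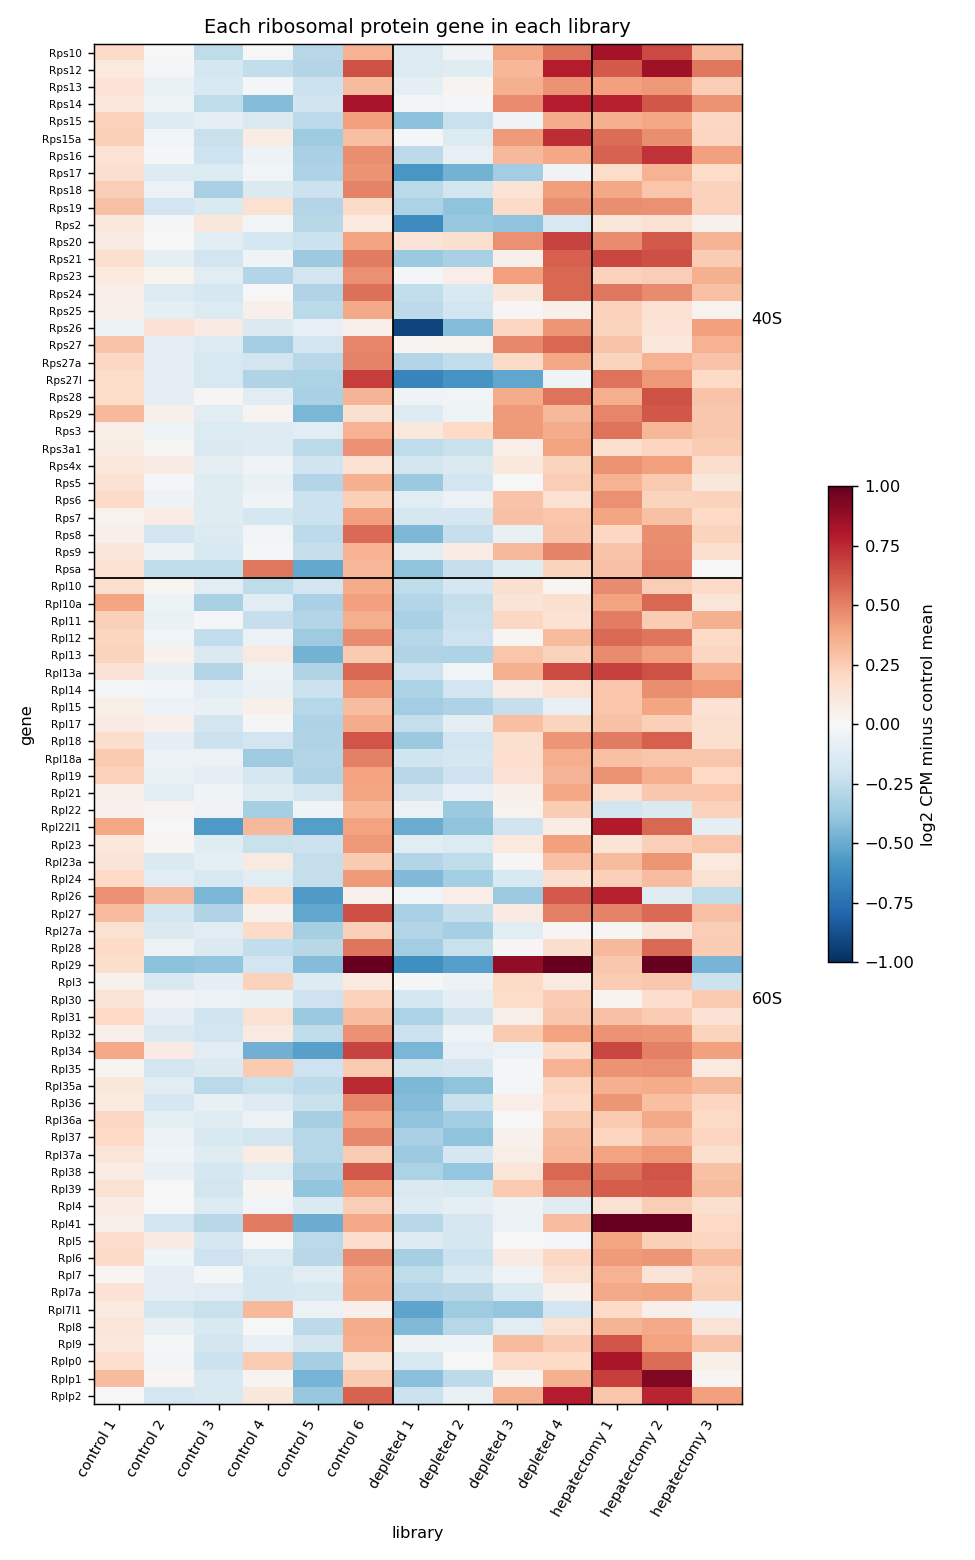
Each row is a ribosomal protein gene (1 of the 80 tested is not drawn), each column a liver, and the colour is the log2 CPM minus the mean of the 6 controls, from -1 to 1. Control replicates 1 and 6, depleted replicates 3 and 4 and all 3 hepatectomised livers lie above the control mean (red) in most rows, Rpl29 and Rpl41 stand out from their neighbours, and Rps2 and Rpl7l1 are blue in the depleted livers.

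The first comparison asked how ribosomal protein mRNAs stood in livers depleted of stellate cells. Few members passed the test against control, 4 of 80 (5%), against 33.9% of all 13831 tested genes. Rps20 and Rps3 were higher (18.9% of all tested genes were), and Rps2 and Rpl7l1 were lower (15% of all tested genes were). These and later calls are from edgeR's quasi-likelihood test with sex in the model, at an adjusted p (Benjamini-Hochberg over all tested genes) under 0.05. The median log2 fold change of the members was 0.06, against -0.03 for all tested genes, and the 80 values ran from -0.37 to 0.55. Of the members, 53 had a value above 0, against 47.7% of all tested genes. The median was -0.07 without depleted replicate 4, against an all-gene median of -0.04, and -0.002 with no sex term. No member had ranges that did not overlap between the groups, against 28.4% of all tested genes. At an unadjusted p under 0.05 there were 5 members, against 43.6% of all tested genes. The median standard error of a member was 0.15 on the log2 scale.

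Rps20 and Rps3 are proteins of the head of the small subunit, and Rps3 lies at the mRNA entry channel. Rps20 had 74.5, 83.2 and 114 CPM as the lowest, median and highest of 6 controls, and 94.5, 96.5, 118.5 and 138 CPM in the depleted livers. All but control replicate 6 lay below the depleted range. Its log2 fold change was 0.43 ± 0.13 (SE, edgeR adjusted p = 0.0226). Rps3 had 186, 194 and 260 CPM in controls and 220, 234, 275 and 263 CPM in depleted livers, again with control replicate 6 alone inside the depleted range. Its log2 fold change was 0.33 ± 0.11 (SE, edgeR adjusted p = 0.0367). With each library left out in turn, Rps20 was called in 12 of 13 fits and Rps3 in 5 of 13. Neither was called with no sex term or among females only.

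Rps2 also belongs to the small subunit, at the mRNA entry, whereas Rpl7l1 is a paralogue of Rpl7 that takes part in assembling the large subunit. Rps2 had 283, 353 and 371 CPM in controls and 221, 264, 259 and 307 CPM in depleted livers. Only control replicate 5 lay within the depleted range. The log2 fold change was -0.37 ± 0.13 (SE, edgeR adjusted p = 0.0375). Rpl7l1 had 50.6, 58.9 and 74.0 CPM in controls and 40.9, 46.3, 45.1 and 51.7 CPM in depleted livers, with the lowest control below the highest depleted value. Its log2 fold change was -0.37 ± 0.13 (SE, edgeR adjusted p = 0.0372). Each was called in 6 of 13 fits that left out a library. Neither was called with library size alone or among females only, and Rps2 was not called with 2 groups only. Rps2 has 11 named pseudogenes and overlaps Snhg9 on the other strand, and Rpl7l1 overlaps a long noncoding RNA on the other strand. The strand setting of the counting is not given in the sources used here.

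**Figure D3:**
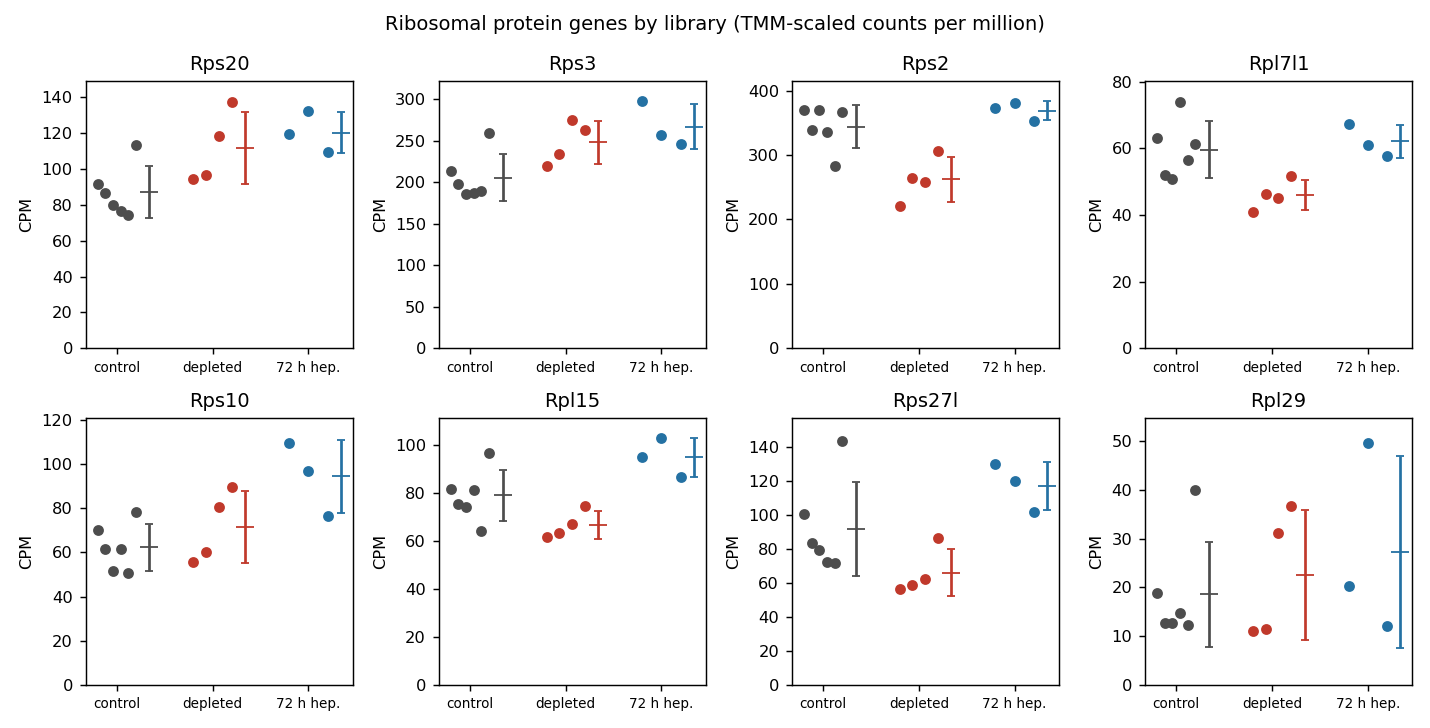
CPM of 8 ribosomal protein genes in each liver (points, replicates from left to right within a group) with group means ± SD, on linear axes from 0. Rps2 and Rpl7l1 are lowest in the depleted livers, while Rps20 and Rps3 are lowest in controls other than replicate 6, and Rpl29 has high and low livers in all 3 groups.

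The subunits differed in where their genes lay. Of 32 genes of the 40S subunit, 24 had a log2 fold change above 0 in depleted livers, with a median of 0.13. Of 48 genes of the 60S subunit, 29 were above 0, with a median of 0.02. The mean log2 CPM of 40S genes minus that of 60S genes was 0.06 to 0.13 in the 6 controls. It was 0.15, 0.16, 0.21 and 0.23 in the depleted livers, all above the highest control. In hepatectomised livers it was 0.11, 0.10 and 0.17, with 2 of 3 inside the control range. The difference between the subunits' median log2 fold changes was 0.11 in depleted livers. It lay between 0.08 and 0.14 over all alternative fits, and was 0.12 with the length trend removed. Besides Rps20, high 40S genes were Rps14 (0.42 ± 0.21), Rps15a (0.36 ± 0.17) and Rps27 (0.35 ± 0.16), none of them called. Removing the length trend raised the count of members called from 4 to 13, of which 9 were higher and 4 lower, against 36.4% of all tested genes called in that fit. All of these but Rpl7l1 are 40S genes. As a description of 80 genes measured in the same libraries, this difference carries no test.

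The cell makeup of the depleted livers differed as well. Summed T and NK cell markers rose from 2.97 to 5.57 CPM in controls to 40.7 to 97.5 CPM, with 9 of 9 called higher, and B and plasma cell markers from 3.96 to 6.88 CPM to 40.6 to 58.2 CPM, with 6 of 6 higher. Monocyte and neutrophil markers were higher in 9 of 9, at 649 to 1108 CPM against 16.4 to 124 CPM. Kupffer cell markers were higher in 6 of 9 and proliferation genes in 10 of 15. The other 3 Kupffer cell markers were not called, with log2 fold changes of -3.00 ± 1.26 for Clec4f, -0.88 ± 0.60 for Vsig4 and 1.49 ± 0.59 for Cd5l (SE). Of 12 hepatocyte markers, 4 were lower and 1 was higher. Of all tested genes, 18.9% were higher and 15% lower. In whole liver, a change in the number of cells of a type and a change in RNA per cell cannot be told apart, and the part of these cells in the ribosomal protein values was not tested.

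The second comparison set regrowing livers against the same 6 controls, which both comparisons share. After hepatectomy, 79 of 80 members had a log2 fold change above 0, against 47.8% of all tested genes, and the median was 0.29, a 1.22-fold higher level. Counts of members above or below 0, here and in the other comparisons, carry no test, because the members moved together between livers. A single member was called, Rps10, which was higher (1.25% of members), against 8.42% of all tested genes in either direction and 6.06% higher. The all-gene median was -0.02. At an unadjusted p under 0.05 there were 24 members (30% of 80), against 24.3% of all tested genes. The 40S and 60S genes had the same median of 0.29. Rpl22, an RNA-binding protein of the large subunit, was the only member below 0, at -0.04 ± 0.17. The size of the shift depended on the scaling. With library size alone, the member median was 0.07 and the all-gene median -0.24, so the member median lay 0.31 above the all-gene median under either scaling. With the length trend removed, the member median was 0.20, and 4 members were called, against 9.38% of all tested genes. With the replicate number as a block, Rps10, Rps16 and Rpl41 were called, 3 of 80, against 4.57% of all tested genes.

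Cell markers were counted here too, beside the 6.06% of all tested genes that were higher, and their part in the ribosomal protein values was not tested. Monocyte and neutrophil markers were higher in 4 of 9, with sums of 61.05 to 203 CPM after hepatectomy and 16.4 to 124 CPM in controls. Cholangiocyte markers were higher in 2 of 5, with sums of 87.3 to 95.5 CPM against 49.2 to 93.2 CPM. Most of these sums was Spp1, which was not called (means of 76.2 and 64.5 CPM). The called genes, Krt7 and Krt19, had means of 3.1 and 4.2 CPM after hepatectomy and 0.71 and 0.98 CPM in controls. Hepatocyte markers were higher in 2 of 12, with sums of 148900 to 208300 CPM against 103700 to 165800 CPM. Kupffer cell and T and NK cell markers had 0 of 9 called each, and of 6 B and plasma cell markers 1 was lower.

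Rps10 is a protein of the beak of the small subunit. It had 50.7, 61.4 and 78.1 CPM as the lowest, median and highest control and 110, 97.1 and 76.7 CPM in the hepatectomised livers. Replicates 1 and 2 lay above every control, and replicate 3 below the highest. The log2 fold change was 0.54 ± 0.15 (SE, edgeR adjusted p = 0.0441), and the gene was called in 4 of 13 fits that left out a library. It was not called with no sex term or with library size alone. Its locus overlaps an annotated readthrough gene with Nudt3 on the same strand. Rpl41, the smallest ribosomal protein, had the highest fold change, 0.81 ± 0.25 (SE, edgeR adjusted p = 0.0682). Its level was 73.3 to 148 CPM in controls, and 236, 236 and 118.5 CPM after hepatectomy. The female, replicate 3, lay within the control range. The next highest besides Rps10 were Rps12 (0.60 ± 0.21), Rps16 (0.51 ± 0.15) and Rps14 (0.51 ± 0.22), none of them called (edgeR adjusted p = 0.101, 0.053 and 0.178). The ranges did not overlap for 2 members, Rpl5 and Rps4x, both higher, against 7.41% of all tested genes in that direction. Rpl5 had 62.5 to 85.3 CPM in controls and 99.2, 88.7 and 87.6 CPM after hepatectomy, and Rps4x 166 to 212 CPM against 262, 254 and 216 CPM.

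**Figure D4:**
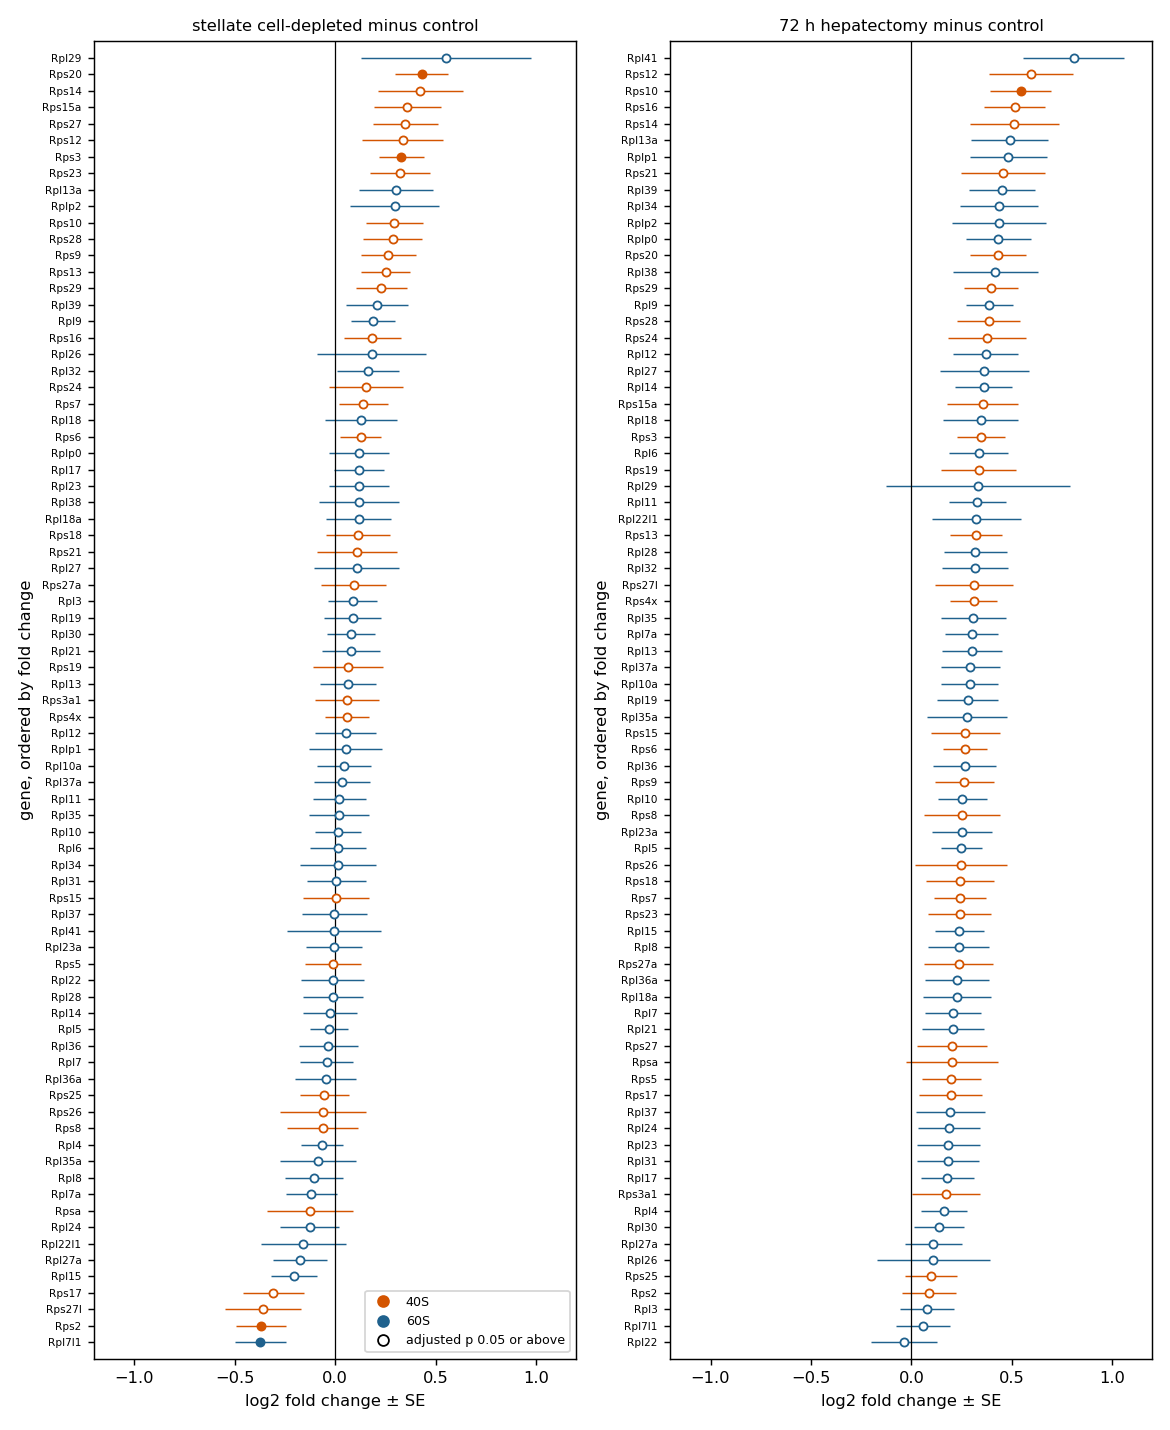
Log2 fold change ± SE of the tested genes (1 of 80 is not drawn) against the 6 controls, which both panels share, with 40S genes in orange and 60S genes in blue and filled circles for adjusted p under 0.05. In depleted livers the values lie on both sides of 0 with 4 filled circles, and after hepatectomy all drawn genes but Rpl22 lie above 0 with 1 filled circle.

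Set directly against each other, depleted livers had fitted values below those of hepatectomised livers in 70 of 80 members, with a median log2 fold change of -0.24 against -0.05 for all tested genes. The other 10 members were above 0, as were 46.6% of all tested genes. Rps27l, Rps2 and Rpl15 were called lower (3.75% of members), against 23.4% of all tested genes in either direction and 10.1% lower. Rps27l, a paralogue of Rps27 that is known as a target of p53, had 56.5, 59.1, 62.1 and 86.6 CPM in depleted and 130, 120 and 102 CPM in hepatectomised livers (-0.67 ± 0.22 SE, edgeR adjusted p = 0.0456). Rps2 changed by -0.46 ± 0.15 (SE, edgeR adjusted p = 0.0442), with 353 to 381 CPM after hepatectomy. Rpl15, a core protein of the large subunit, had 61.5, 63.1, 66.8 and 74.5 CPM against 94.9, 103 and 86.4 CPM (-0.44 ± 0.14 SE, edgeR adjusted p = 0.0337). Ranges did not overlap between the groups for 18 members, these 3 among them, all lower, against 15.9% of all tested genes in that direction. With each library left out in turn, Rpl15 was called in 7 of 13 fits, and Rps27l and Rps2 in 3 of 13 each. With the replicate number as a block, 6 members were called, against 22.9% of all tested genes, and Rps2 was not among them (edgeR adjusted p = 0.0723). Library size alone gave a member median of 0.09 with 0 called and an all-gene median of 0.27. Relative to the all-gene median, the member median was -0.20 with TMM factors and -0.19 with library size alone. With the length trend removed, the member median was -0.14, which differed from the all-gene median by -0.09, and 6 members were called, against 25.6% of all tested genes. Without depleted replicate 4, the median was -0.37 and 23 of 80 members were called, against 28% of all genes tested in that fit. Cell markers differed too, beside the 23.4% of all tested genes called in the main fit. Monocyte and neutrophil markers were higher in depleted livers in 9 of 9, and T and NK cell markers in 8 of 9. B and plasma cell markers were higher in 6 of 6 and Kupffer cell markers in 3 of 9. Hepatocyte markers were lower in 3 of 12, and the part of these cells in the ribosomal protein values was not tested.

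The stalk proteins Rplp0, Rplp1 and Rplp2, which recruit translation factors to the large subunit, did not pass in any comparison. Rplp0 had 214 to 320 CPM in controls, 240, 269, 307 and 308 CPM in depleted and 472, 397 and 279 CPM in hepatectomised livers. The log2 fold changes after hepatectomy were 0.43 ± 0.16 for Rplp0, 0.48 ± 0.19 for Rplp1 and 0.43 ± 0.23 for Rplp2 (SE, edgeR adjusted p = 0.122, 0.146 and 0.275). In the first 2 hepatectomised livers Rplp0 and Rplp1 lay above every control, and in replicate 3 within their range. Rpl5 and Rpl11 join the 5S rRNA in a particle that also binds Mdm2, the inhibitor of p53. They changed by -0.03 ± 0.10 and 0.02 ± 0.13 in depleted livers, and by 0.25 ± 0.10 and 0.33 ± 0.14 after hepatectomy, none of them called. Of the p53 list, Cdkn1a, a p53 target that halts the cell cycle, was higher in both (log2 fold changes of 4.74 ± 0.53 and 6.17 ± 0.57 SE, edgeR adjusted p = 4.75e-05 and 0.00013), and Mdm2 after hepatectomy (0.54 ± 0.14 SE, edgeR adjusted p = 0.0324). Of all tested genes, 18.9% were higher in depleted livers and 6.06% after hepatectomy.

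Members with known roles of their own gave these values. Rps6, the substrate of S6 kinase, changed by 0.13 ± 0.10 in depleted livers and 0.27 ± 0.11 after hepatectomy. Rpsa, also known as the laminin receptor, changed by -0.12 ± 0.21 and 0.20 ± 0.23, and ranged from 189 to 389 CPM among controls. Rpl38, needed for the translation of some Hox mRNAs, changed by 0.12 ± 0.20 and 0.42 ± 0.21. Rpl13a, known from interferon-γ-dependent translational control, changed by 0.30 ± 0.18 and 0.49 ± 0.19. For Rpl10 and Rpl10a, Rpl3, Rps19 and Rps25, values lay between -0.05 and 0.09 in depleted livers and between 0.08 and 0.33 after hepatectomy. None of these 9 genes was called in any of the 3 comparisons.

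Paralogues were measured beside their partners. Rpl22l1, which can take the place of Rpl22, had 27.9 ± 8.15 CPM in controls (SD, n = 6). Depleted livers had 22.7 ± 4.12 CPM (SD, n = 4) and hepatectomised livers 37.2 ± 11 CPM (SD, n = 3). It passed in neither comparison with control (edgeR adjusted p = 0.605 and 0.402). Rpl22 itself was at 88.3 ± 13.1, 86.4 ± 15 and 86.3 ± 14.3 CPM in the same order. Rps27l stood at -0.36 ± 0.19 and Rps27 at 0.35 ± 0.16 in depleted livers (edgeR adjusted p = 0.162 and 0.12). The difference between these partners was not tested. Rpl3l and Rpl39l had 0 to 11 and 0 to 8 counts in a library, or up to 0.192 and 0.206 CPM. Rps4l, the row annotated as a transcribed pseudogene of Rps4x, rose from 17.1 ± 4.28 to 22 ± 5.87 CPM in depleted livers (log2 fold change 0.55 ± 0.15 SE, edgeR adjusted p = 0.0129), and Rps4x changed by 0.06 ± 0.11. Among controls, Rps4l was at 20.5, 22.5 and 19.7 CPM in males and 12.8, 13.6 and 13.4 CPM in females. The depleted females had 13.8, 22.4 and 24.5 CPM and the depleted male 27.4 CPM.

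Some members departed from the common level within groups. Around the mean of all members, the standard deviation over libraries was 0.59 for Rpl29, 0.37 for Rpl26, 0.36 for Rpl41, 0.28 for Rpl22l1 and 0.28 for Rps26, against a median of 0.13. Rpl29, a basic protein of the large subunit, had 40.03 CPM in control replicate 6, 31.0 and 36.6 CPM in depleted replicates 3 and 4, and 49.6 CPM in hepatectomy replicate 2. The other 9 libraries had 10.9 to 20.2 CPM. High and low livers occurred in all groups and both sexes. Rps26, at the mRNA exit of the small subunit, had 81.8 to 100 CPM in controls, but 47.9, 67.1, 105 and 123 CPM in the depleted livers, on both sides of the control range. Its log2 fold change was -0.06 ± 0.21 (SE, edgeR adjusted p = 0.852).

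The mitochondrial ribosomal proteins, which form the separate ribosome of the organelle, gave other values in the same libraries. Of 77 tested, 19 were lower and 0 higher in depleted livers, with a median log2 fold change of -0.32, against 2 higher and 2 lower of 80 cytosolic genes. Of all tested genes, 15% were lower and 33.9% were called in either direction. Mrpl50 fell from 62.8 ± 11.4 to 38.2 ± 2.55 CPM (log2 fold change -0.75 ± 0.13 SE, edgeR adjusted p = 0.000668), and Mrpl14 from 31.9 ± 6.99 to 18.0 ± 7.37 CPM. The median deviation of the mitochondrial genes from the control mean was -0.60, -0.49, -0.37 and -0.08 in the 4 depleted livers, beside -0.27, -0.19, 0.10 and 0.31 for the cytosolic genes. In each depleted liver the mitochondrial median was the lower. This also held in each hepatectomised liver, with 0.154, 0.257 and -0.025 for the mitochondrial genes beside 0.394, 0.403 and 0.223 for the cytosolic genes. After hepatectomy 1 of 77 was higher, Mrps6 (0.80 ± 0.23 SE, edgeR adjusted p = 0.0481), and the median was 0.07. Of all tested genes, 6.06% were higher in that comparison.

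Among 22 translation factors and other mRNAs known to carry a TOP tract, 3 were higher and 2 lower in depleted livers, against 18.9% higher and 15% lower of all tested genes. Nap1l1, a histone chaperone, rose by 0.81 ± 0.14 on the log2 scale (SE, edgeR adjusted p = 0.000779). Pabpc1, the poly(A)-binding protein, rose by 0.48 ± 0.13 and Hnrnpa1, a splicing factor, by 0.43 ± 0.13, while the initiation factors Eif4b and Eif3l fell by 0.58 and 0.32. After hepatectomy Nap1l1 alone passed (0.65 ± 0.15), against 8.42% of all tested genes. Eef1a1, elongation factor 1A, was at 4065 ± 340 CPM in controls, 3550 ± 291 in depleted and 4151 ± 740 in hepatectomised livers, and was not called. Of the proteins outside the symbol rule, Rack1, the scaffold on the 40S head, changed by 0.14 ± 0.13 and 0.34 ± 0.14, and Fau by 0.21 ± 0.16 and 0.08 ± 0.17, neither of them called.

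Of 22 regulators of mTOR and of TOP mRNAs, 3 were higher and 9 lower in depleted livers, beside the same 18.9% and 15% of all tested genes. The higher genes were Ddit4 and Sesn2, stress-induced inhibitors of mTOR complex 1, and Eif4ebp3, an inhibitor of the cap-binding protein. Ddit4 rose from 3.08 ± 1.37 CPM to 40.7 ± 22 CPM (log2 fold change 3.72 ± 0.42 SE, edgeR adjusted p = 4.47e-05). Eif4ebp3 rose by 3.16 ± 0.61 and overlaps another annotated coding gene on its strand. Lower genes included Mtor itself (-0.47 ± 0.15 SE, edgeR adjusted p = 0.0255), its partner Rptor, its inhibitors Tsc1, Tsc2 and Deptor (-1.16 ± 0.22) and the scaffold Eif4g1. Larp1, at -0.22 ± 0.11, and Eif4ebp1, at -0.20 ± 0.20, did not pass. After hepatectomy Ddit4 rose by 2.75 ± 0.44 and Deptor fell by 0.93, and no other gene of this list was called. Of all tested genes, 8.42% were called in that comparison.

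Ribosome biogenesis genes, which make rRNA and assemble subunits, were called in 5 of 43 cases in depleted livers, against 33.9% of all tested genes. Myc, the transcription factor that drives many of them, rose from 3.48 ± 2.7 CPM to 12.3 ± 4.21 CPM (log2 fold change 2.01 ± 0.44 SE, edgeR adjusted p = 0.00384), and Eif6, which keeps the 60S subunit from joining early, rose by 0.66 ± 0.11. Ubtf and Rrn3, factors of RNA polymerase I, and the pseudouridine synthase Dkc1 were lower. The nucleolar proteins Npm1, Ncl and Fbl changed by 0.10 ± 0.18, 0.06 ± 0.15 and 0.08 ± 0.17, none called. After hepatectomy Eif6 (0.57 ± 0.12) and Rrs1, an assembly factor of the 60S subunit (0.93 ± 0.26), were higher and Dkc1 lower. Of all tested genes, 8.42% were called in that comparison. Of 5 chaperones that escort single ribosomal proteins, Bccip, the chaperone of Rpl23, was lower in depleted livers (-0.50 ± 0.11 SE, edgeR adjusted p = 0.004), and 0 were called after hepatectomy. Proliferation genes were higher in 15 of 15 after hepatectomy, against 6.06% of all tested genes. Their sums differed between the hepatectomised livers, at 165.7, 306.5 and 1049 CPM, against 45.1 to 105.4 CPM in controls.

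Members with and without a run of pyrimidines at the annotated start had like medians. In depleted livers, the median log2 fold change was 0.09 for 29 members with a run and 0.05 for 31 without. After hepatectomy it was 0.31 and 0.29. Between depleted and hepatectomised livers it was -0.28 and -0.25, and the 3 genes called there, Rps2, Rpl15 and Rps27l, all have a run. Of the genes called in depleted livers against control, 1 has a run (Rps2), 2 have none (Rps3 and Rpl7l1) and Rps20 has no window. Rps10, called after hepatectomy, has a run.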

How the data were processed

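Whole-liver RNA of 13 mouse libraries was measured. Per the labels' protocols, TRIzol RNA (500 ng) went into TruSeq stranded mRNA libraries sequenced over 2 flowcell lanes. The authors deposited raw read counts per gene, and the submitters' processing notes name STAR 2.7.1a, SAMtools 1.15.1, featureCounts 1.6.4 and build mm10. Treatment of multi-mapped reads and strand is not given in the sources used here. The labels give no batch, and do not say that the replicates of a group are separate animals, so p-values measure the spread between these libraries, which may in part be technical. Symbols and coordinates came from GENCODE M21 (GRCm38), which matched 21818 of 22048 IDs, and 99.94% of these overlapped the same gene. Xist was not used.

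From the counts, edgeR 4.0.16 in R 4.3.3 (filterByExpr, TMM, glmQLFit robust, glmQLFTest, two-sided) tested 13831 genes with group and sex over all 13 libraries, with a threshold of 0.05 on p-values adjusted over all tested genes. The common biological coefficient of variation was 31.4%. TMM factors were 0.858 to 0.882 in hepatectomised and 0.942 to 1.19 in other libraries. Log2 CPM used a prior count of 2. Per-length levels are RPKM, computed from the deposited counts and lengths. Intervals and the floor of 3 counts cover counting error only. The scripts were tested on simulated counts. DESeq2 1.42.0, limma-voom (limma 3.58.1), other scalings, no filter, no sex term, fewer libraries, a replicate block and a length correction (lowess, span 0.3) were alternatives.

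The members and gene lists were chosen with earlier results of these data known. Genes were named by rule: up to 5 rises and 5 falls among called members per comparison, the 5 highest and 5 lowest per length, a fixed set of members, and of each pathway list the 2 largest called changes plus a fixed set. Rpl29, Rpl26, Rps26, Rps14, Rps16, Rps12, Rps27l beside Rps27, Rps15a, Hnrnpa1, Eif3l, Sesn2, Tsc1, Tsc2, Rptor, Eif4g1, Ubtf, Rrn3, Dkc1, Clec4f, Vsig4, Cd5l, Spp1, Krt7 and Krt19 were named after their values were seen. Some genes that the rule names are not reported here. The list of 6 snoRNA host genes had 0 rows in the table.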

Additional observations from a re-analysis of the deposited data

Results flagged for a closer look

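Of 74 groups of 4 or 6 libraries tested by Dixon's criterion, 3 held a library far from the others, and chance gives 3.7. All 3 were in control replicate 6. Rpl7 had 339.2 CPM there, against 232.5 to 265.5 CPM in the other 5 controls, a gap of 0.690 of the group's range (critical value 0.625). Rpl38 had 66.26 CPM, against 34.44 to 45.7 CPM, a gap of 0.646. Rps3 had 259.6 CPM, against 185.7 to 213.1 CPM, a gap of 0.630. In this library 80 of 80 members lay above the control mean, its length slope of -0.08 was the only negative one among controls, and its mitochondrial ribosomal protein genes stood at a median of 0.43 above the control mean.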

How the results depend on the processing

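Counts of members called in depleted against control livers (main 4) were 2 with no sex term, 0 with females only, 13 with the length trend removed and 1 to 5 with a library left out, while 34.2%, 20%, 36.4% and 21.6 to 35.1% of all tested genes were called. After hepatectomy (main 1) they were 0 with library size alone, 2 with median-of-ratios size factors in edgeR, 7 with DESeq2, 3 with 2 groups only, 4 with the length trend removed and 0 to 8 with a library left out (15.8%, 8.5%, 14%, 7.16%, 9.38% and 3.43 to 10.6% of all tested genes). Between depleted and hepatectomised livers (main 3) they were 0 with library size alone (member median 0.086), 7 with DESeq2, 8 with no sex term, 1 with 2 groups only, 6 with the length trend removed and 0 to 23 with a library left out (26.8%, 28.5%, 27.5%, 15.5%, 25.6% and 12.4 to 28% of all tested genes).

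Medians with a library left out ran from -0.07 to 0.13, 0.25 to 0.35 and -0.37 to -0.18 in the 3 comparisons. Without depleted replicate 4 the first was -0.07 with 5 called, the second gave 8 called and the third 23 (35.1%, 10.6% and 28% of all tested genes). Without control replicate 6, 5 and 7 were called in the first 2 comparisons (32.9% and 7.09% of all tested genes). Leaving out any one of depleted replicates 1, 2 or 3 or hepatectomy replicates 1 or 2 left 0 called in the third.

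With the replicate number as a block, 1, 3 and 6 members were called (28.1%, 4.57% and 22.9% of all tested genes). Sex-adjusted deviations of same-numbered livers correlated at -0.10 to 0.42 across genes for depleted and control, -0.19 to 0.08 for hepatectomy and control and 0.04 to 0.27 for hepatectomy and depleted. Without the sex adjustment, the 3 hepatectomy and control pairs, each of 1 sex, correlated at 0.107 to 0.523. The labels name nothing that same-numbered livers share, and they were not treated as pairs because the sex-adjusted values were not all above 0.1 in any comparison. Genes are not independent replicates. Rps20 and Rps10 passed with the block, and Rps3, Rps2 and Rpl7l1 did not (adjusted p = 0.0594, 0.0775 and 0.0846).

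Over 183 gene results and 24 alternatives, 3993 of 4270 values kept their side of the threshold, 226 lost the call and 51 gained it, and no gene called in either fit changed sign. Of the 3993, 208 were values called in neither fit whose sign changed. The causes were not tested. Groups of 3 to 6 livers and a median standard error of 0.15 to 0.18 limit what can be seen for changes under 1.5-fold.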

Other observations

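Rps26-ps1, a transcribed pseudogene of Rps26 outside the symbol rule, varied between livers of the same group. It had 13.5, 0.816, 0.567, 11.4, 0.304 and 22.6 CPM in control replicates 1 to 6. It had 17.6, 8.44, 0.559 and 11.8 CPM in the depleted and 15.6, 27.3 and 1.05 CPM in the hepatectomised livers. High and low values occurred in all 3 groups and in both sexes. Rps26 itself had 81.8 to 100 CPM in controls and 47.9, 67.1, 105 and 123 CPM in the depleted livers.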
